A study of Homo sapiens with 9 samples.

Results

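The genes described here were 31 genes of cholesterol and fatty acid synthesis that are targets or regulators of the sterol regulatory element-binding proteins (SREBPs), out of 25369 genes named in the count table. They were chosen by symbol from a list, with no threshold on expression, and each was found in the table and passed the filter on low counts. They comprised 18 enzymes of sterol synthesis, the sterol carrier STARD4, 8 enzymes of fatty acid synthesis and 4 regulators (SREBF1, SREBF2, INSIG1 and INSIG2). RNA was sequenced from 9 libraries of MCF10A, an established, non-tumorigenic human mammary epithelial line. Cells were transduced with a retrovirus, either the empty vector pBABEpuro or the same vector with HER2-CAV659E, a constitutively active form of the receptor tyrosine kinase encoded by ERBB2. Whether a line was 1 clone or a pool is not given in the sources used here. Control siRNA or siRNA against the genes of YAP and TAZ was transfected, cells were replated after 24 h on plastic or on a 0.5 kPa polyacrylamide hydrogel, and RNA was taken 24 h later. The medium of all groups held horse serum, insulin and EGF.

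The empty-vector line on plastic gave control libraries A and B and libraries with YAP/TAZ siRNA reagents 1 and 3. The HER2 line on plastic gave 1 control library and libraries with reagents 1 and 3, and a single control library came from the hydrogel for either line. Nothing in the labels says that replicates came from separate cultures, so p-values measure at most the spread between these libraries, which may be technical. Groups of 1 library have no spread of their own and were taken to vary like the others. In these bulk samples, fewer cells of a type and less RNA per cell cannot be told apart.

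YAP and TAZ are transcriptional co-activators of the Hippo pathway that respond to the stiffness of what cells grow on. SREBPs are transcription factors made as membrane proteins of the endoplasmic reticulum. When sterol is low, the escort protein SCAP carries them to the Golgi, where proteases release the active part. When sterol is high, INSIG proteins hold SCAP back. SREBP-2, from SREBF2, acts mainly on sterol genes and SREBP-1, from SREBF1, mainly on fatty acid genes, and INSIG1 and SREBF2 are themselves targets.

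Depth ranged between 24425556 counts (HER2 control, plastic) and 78945981 counts (empty vector, siRNA 3), and the 31 genes took 0.425% to 0.659% of the counts. The smallest count of any of them was 21, for TM7SF2 in the HER2 control. Levels are given as CPM, the read count relative to the library size after TMM scaling. YAP1, the gene of the transcriptional co-activator YAP, was 83.9 and 85.1 CPM in the empty-vector controls and 14.2 and 14.3 CPM with siRNA 1 and 3. In the HER2 line it was 115 CPM in the control and 9.75 and 18.9 CPM with siRNA. WWTR1, the gene of TAZ, was 77.4 and 76.9 CPM in the empty-vector controls and 14 and 21.6 CPM with siRNA, and 169.6 CPM and then 28.97 and 48.2 CPM in the HER2 line. ERBB2 was 57.7 to 95.5 CPM in the empty-vector libraries and 361 to 614 CPM in the HER2 libraries. The basal epithelial genes KRT14 and TP63, present in every empty-vector library at 80.1 CPM or more and 69.3 CPM or more, were at 1.70 CPM or less in the HER2 libraries. KRT17, CDH3, LAMA3 and COL17A1, of the same basal list, were also lower in every HER2 library than in any empty-vector library. KRT5 was at 213 to 646 CPM in the HER2 libraries and 658.7 to 4651 CPM in the empty-vector libraries. ITGA6 was at 624 to 1147 CPM and 578.5 to 2104 CPM in the same order. The leukocyte genes PTPRC and CD3E were at or near 0 throughout. LYZ was at 1.03 CPM or less, and CD14 was at 6.44 to 26.1 CPM.

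Promoter sequences are shown for 4 of the genes, to set the letters recognised in SREBP promoters beside the expression values. SREBF2 held the single match to the longer sterol element, MVK held the highest number of CCAAT boxes beside a match to the shorter core (NSDHL had as many CCAAT boxes and no core), and INSIG1 and FADS1 were the genes whose difference between lines on the hydrogel was called most steadily. They were chosen after the matches had been seen. Sequences are from RefSeq on GRCh38.p14, a later build than the hg19 of the counts, and show the 250 bases before the start site, 5′ to 3′ on the gene's strand. They lie at chr22:41832855-41833104 (plus strand), chr12:109573544-109573793 (plus strand), chr7:155297628-155297877 (plus strand) and chr11:61817004-61817253 (minus strand). Capitals mark matches on either strand to TCACNCCAC or CACNCCA, a longer and a shorter form of the sterol regulatory element, and to CCAAT, the box bound by NF-Y.
SREBF2: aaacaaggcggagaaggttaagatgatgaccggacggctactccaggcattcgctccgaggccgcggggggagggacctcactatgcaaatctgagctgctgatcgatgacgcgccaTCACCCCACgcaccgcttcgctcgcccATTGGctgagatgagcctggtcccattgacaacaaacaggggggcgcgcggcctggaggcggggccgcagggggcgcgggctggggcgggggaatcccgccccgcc
MVK: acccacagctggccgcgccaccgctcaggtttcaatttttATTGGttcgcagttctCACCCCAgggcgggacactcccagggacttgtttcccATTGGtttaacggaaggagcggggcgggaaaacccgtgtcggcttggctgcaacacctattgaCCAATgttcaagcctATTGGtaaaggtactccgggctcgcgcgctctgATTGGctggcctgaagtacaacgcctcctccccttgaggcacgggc
INSIG1: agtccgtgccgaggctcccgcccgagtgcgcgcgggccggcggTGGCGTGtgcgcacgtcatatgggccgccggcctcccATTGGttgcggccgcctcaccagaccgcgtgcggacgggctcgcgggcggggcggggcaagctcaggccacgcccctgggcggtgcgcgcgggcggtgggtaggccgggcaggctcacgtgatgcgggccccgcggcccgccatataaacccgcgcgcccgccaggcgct
FADS1: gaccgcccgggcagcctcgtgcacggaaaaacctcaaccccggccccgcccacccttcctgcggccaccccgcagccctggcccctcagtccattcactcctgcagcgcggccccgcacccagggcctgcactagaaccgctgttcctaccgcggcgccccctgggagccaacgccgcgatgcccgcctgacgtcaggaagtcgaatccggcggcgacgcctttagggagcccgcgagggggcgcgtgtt

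RefSeq promoter windows of 300 bases, with 50 of them after the start site, were found for 27 of the 31 genes. The longer element TCACNCCAC was in 1 of the 27 (3.7%), against 1.15% of 27305 promoters. Its shorter core CACNCCA, which lies within the longer element and was added after that count had been seen, was in 10 (37%), against 17.4%. CCAAT was in 18 (66.7%), against 35.7%, with 12 of 15 sterol enzymes and 3 of 7 fatty acid enzymes. GGGCGG, the GC box bound by SP1, was in 25 (92.6%), against 44.6%. FADS1 had no match to the first 3 motifs. The 27305 promoters include genes not tested here and were not matched to the 31 genes for expression or base content. A match is a description of letters and not of binding.

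Per kilobase of transcript, the empty-vector controls held most of farnesyl diphosphate synthase FDPS, at 359.7 CPM per kb. It was followed by squalene epoxidase SQLE at 205.5, the sterol methyl oxidase MSMO1 at 171.1, squalene synthase FDFT1 at 145.9 and HMG-CoA synthase HMGCS1 at 140.8 CPM per kb. Of the fatty acid genes, ATP citrate lyase ACLY (135.6) and stearoyl-CoA desaturase SCD (103.6) stood high, and the other 6 lay between 15.9 and 27.7 CPM per kb. SREBF2 stood at 12.4 and SREBF1 at 9.13 CPM per kb, and SREBF2 was the higher in both controls. INSIG1 was at 44.98 and INSIG2 at 2.69 CPM per kb, and the sterol reductase TM7SF2 was lowest at 2.01. FDPS, HSD17B7, SCD and CYP51A1 have pseudogene copies and ACAT2 overlaps TCP1 on the other strand, so their counts are uncertain where reads could be shared.

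Differences were tested with edgeR's quasi-likelihood F test in 2 models, with Benjamini-Hochberg adjustment over 16117 genes and a threshold of 0.05. The group-means model, which was the planned one, called few genes. The reagent model gives siRNA 3 relative to siRNA 1 a term of its own, common to the lines, and called many more. It has only 2 residual degrees of freedom and leans on the close agreement of controls A and B. Its SE and p-values leave out the difference between siRNA 3 and siRNA 1 that the lines share. Calls below are the reagent model's unless the group-means model is named, and fold changes are log2 values ± SE. Each count of the 31 is given with the number left when control A or B is dropped from the reagent model. Dropping either control also lowered the share of all genes that passed, in every comparison where any had passed.

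**Figure D1:**
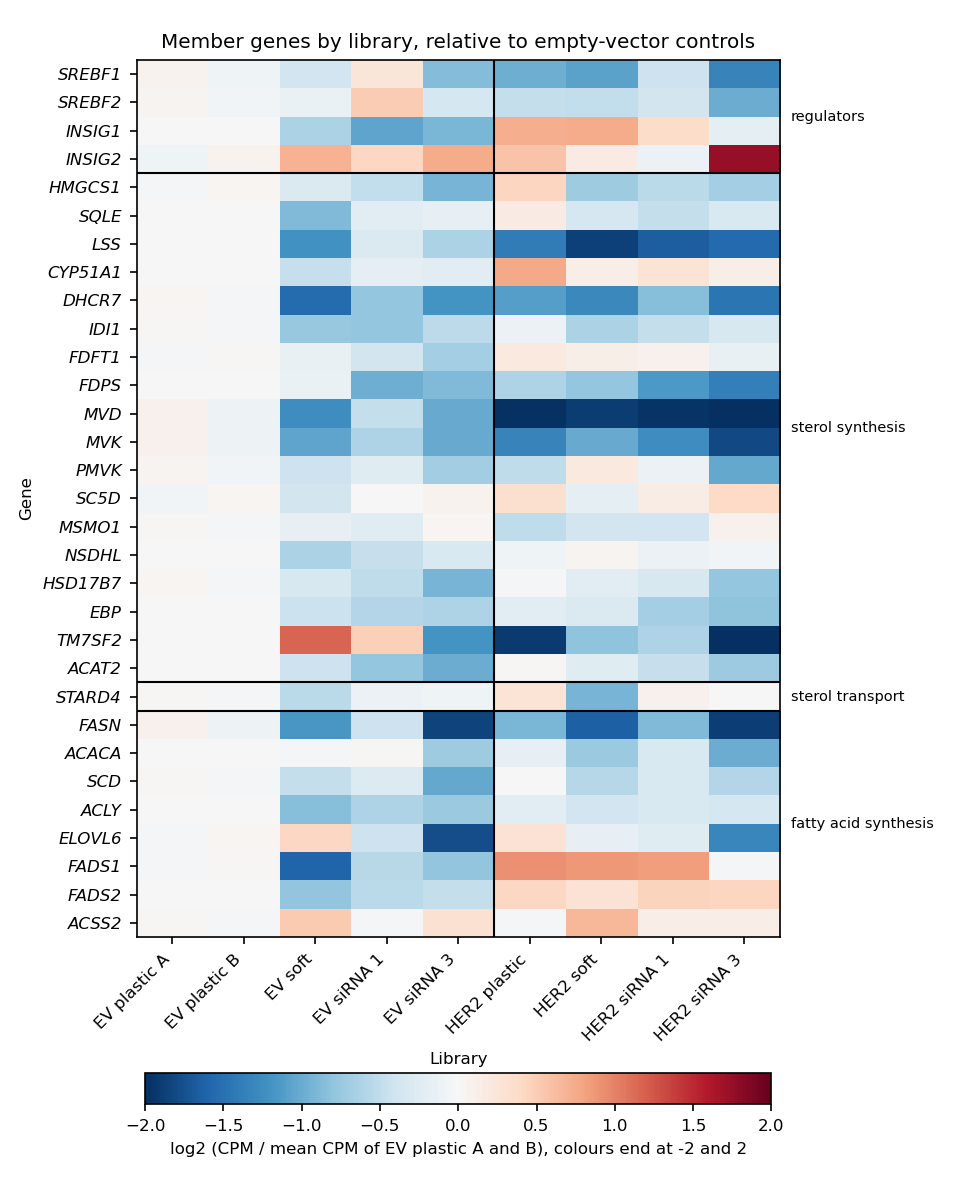
Level of each of the 31 genes (rows) in each of the 9 libraries (columns) as the log2 ratio of its CPM to the mean of the empty-vector controls on plastic; blue is lower and red higher, and colours end at -2 and 2. In the empty-vector siRNA and hydrogel columns 26 or 27 of the 31 genes lie below the controls. MVD, LSS and MVK are among several genes, DHCR7, FDPS and FASN included, that lie below the controls in all 4 HER2 columns. FADS1 lies above them in 3 of the 4.

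With YAP/TAZ siRNA on plastic, most genes of both arms were at lower levels in empty-vector cells than with control siRNA. Both siRNA libraries lay below both controls for 23 of the 31 genes (15 of 18 sterol and 6 of 8 fatty acid enzymes), against 30.8% of all genes tested. The median log2 fold change was -0.56 over the sterol enzymes, -0.65 over the fatty acid enzymes and 0.02 over all genes tested. In the reagent model 17 of the 31 passed as lower (10 sterol, 6 fatty acid, and INSIG1), where 13.6% of all genes did, and 0 as higher, where 12.1% did. The group-means model passed 0 of the 31 and 0 of all genes. Its unadjusted p was under 0.05 for 13 of the 31 and 3473 of the 16117 genes tested. DESeq2 passed 8, where it passed 14.4% of all genes. Without control A, and again without control B, the reagent model passed 0 of the 31, where it passed 3.49% and 3.28% of all genes.

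Fatty acid synthase FASN, which builds palmitate, was 233 and 205 CPM in the controls, 164 CPM with siRNA 1 and 60.6 CPM with siRNA 3. Its log2 fold change was -1.13 ± 0.15 (edgeR, adjusted p = 0.0117), and the library with siRNA 3 was far lower than that with siRNA 1. ELOVL6, which lengthens palmitate, gave 146 and 154 CPM in the controls and 112 and 44.0 CPM with siRNA 1 and 3, a change of -1.09 ± 0.12 (edgeR, adjusted p = 0.00853). For both genes the groups did not overlap but the siRNA libraries were far apart. The SE leaves out the part of that gap shared by the lines. DHCR7, the last reductase of cholesterol synthesis, was 123 and 117 CPM in the controls and 70.0 and 52.5 CPM with siRNA 1 and 3 (-0.99 ± 0.11, edgeR adjusted p = 0.0092). FDPS, which makes farnesyl diphosphate, was 528 and 536 CPM against 270.4 and 289 CPM (-0.93 ± 0.12, edgeR adjusted p = 0.0104). The acetyl-CoA thiolase ACAT2 was 241 and 240.1 CPM against 140.2 and 121 CPM (-0.88 ± 0.10, edgeR adjusted p = 0.00853). All 3 sterol genes were below the controls with either reagent.

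Among the regulators, INSIG1, itself an SREBP target, was 135 and 136 CPM in the controls and 65.0 and 71.6 CPM with siRNA 1 and 3. The groups did not overlap, and the change was -0.98 ± 0.19 (edgeR, adjusted p = 0.0231). SREBF1 was 40.2 and 36.1 CPM in the controls, 45.01 CPM with siRNA 1 and 20.8 CPM with siRNA 3. SREBF2 was 67.4 and 62.4, then 92.0 and 50.7 CPM. For both SREBF genes siRNA 1 lay above the controls and siRNA 3 below them, and neither passed (edgeR adjusted p = 0.149 and 0.689). INSIG2 was 6.60 and 7.36 against 9.29 and 11.6 CPM, higher with both reagents but not past the threshold (edgeR adjusted p = 0.281).

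The other 11 genes that passed as lower had log2 fold changes from -0.81 for mevalonate kinase MVK to -0.50 for the fatty acid desaturase FADS2. Of the 14 that did not pass, SQLE (-0.19), the lanosterol demethylase CYP51A1 (-0.21), MSMO1 (-0.10) and the desaturase SC5D (0.03) were nearest to 0 among the sterol enzymes. All 10 of a list of proliferation genes were below the controls with both reagents, with medians of -2.83 (siRNA 1) and -3.08 (siRNA 3) on the log2 scale. The summed level of that list was 2441 and 2549 CPM in the controls and 364 and 307 CPM with siRNA. Its part in the result was not tested.

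In HER2 cells with the same reagents, HMGCS1 and ELOVL6 were the genes that passed. Both siRNA libraries lay below the 1 control for 17 of the 31 genes, against 29.9% of all genes. The median log2 fold change was -0.22 over the sterol enzymes and -0.45 over the fatty acid enzymes. HMGCS1, which makes HMG-CoA, was 663 CPM in the HER2 control and 338 and 307 CPM with siRNA 1 and 3 (-1.04 ± 0.14, edgeR adjusted p = 0.0405). ELOVL6 was 184 CPM in the control and 127 and 60.9 CPM with siRNA 1 and 3 (-1.06 ± 0.14, edgeR adjusted p = 0.0405). Both reagents gave less than the control for each of them, and they were 2 of 31 that passed as lower, where 2.04% of all genes did, against 0 as higher, where 2.2% did. Without control A or B none of the 31 passed, and 0% of all genes did. The group-means model passed 0 of the 31 and 0% of all genes. Its unadjusted p was under 0.05 for 6 of the 31 and 1751 of the 16117 genes tested. DESeq2 passed 1, HMGCS1, where it passed 3.33% of all genes.

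DHCR7, which had passed in empty-vector cells, was at 56.1 CPM in the HER2 control and 66.7 and 43.8 CPM with siRNA, one above and one below the control. INSIG1 was 224 CPM in the control and 175 and 118 CPM with siRNA, lower with both (-0.63 ± 0.22, edgeR adjusted p = 0.153). SREBF1 was 19.3, 28.7 and 15.2 CPM in the control, siRNA 1 and siRNA 3 libraries. SREBF2 was 46.7, 50.2 and 32.7 CPM in the same order, and both again lay above the control with siRNA 1 and below it with siRNA 3. INSIG2 was 10.4, 6.46 and 23.3 CPM, with the siRNA 3 library far above the rest. The difference of the siRNA response between lines passed for 0 of the 31 and 0% of all genes in both models (edgeR). In the reagent model, unadjusted p was under 0.05 for 6 of the 31 and 2415 of the 16117 genes tested. In the group-means model it was under 0.05 for 0 of the 31 and 736 of all genes. DESeq2 passed 0 of the 31, where it passed 0.211% of all genes. The DHCR7 difference was 0.93 ± 0.18 (HER2 minus empty vector, edgeR adjusted p = 0.232). The proliferation list had a median log2 ratio to the empty-vector controls of 0.29 in the HER2 control, -0.0017 with siRNA 1 and -1.54 with siRNA 3, and its part was not tested.

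With siRNA 3, FASN, ELOVL6, ACACA and both SREBF genes were at lower levels than with siRNA 1 in each line. In the reagent model 8 of the 31 passed as lower with siRNA 3 than with siRNA 1, where 9.36% of all genes did, and 0 as higher, where 7.36% did. Without control A or B, 2 of the 31 passed, both as lower. Of all genes, 457 of 16001 passed as lower without control A and 454 of 15996 without control B. TM7SF2 was 4.82 CPM with siRNA 1 and 1.52 CPM with siRNA 3 in empty-vector cells, and 2.26 and 0.835 CPM in HER2 cells (-1.55 ± 0.26, edgeR adjusted p = 0.0216). FASN, with 164 and 60.6 CPM and then 119 and 59.5 CPM, gave -1.22 ± 0.15 (edgeR, adjusted p = 0.0136). ELOVL6 gave -1.20 ± 0.12 (edgeR, adjusted p = 0.00941). The acetyl-CoA carboxylase ACACA was 214 and 129 CPM in empty-vector cells and 171 and 107 CPM in HER2 cells. Its difference was -0.70 ± 0.10 (edgeR, adjusted p = 0.0155), and in empty-vector cells siRNA 1 left it at the control level of 214 and 209.7 CPM. SREBF1 gave -1.02 ± 0.14 and SREBF2 -0.74 ± 0.12 (edgeR, adjusted p = 0.0152 and 0.0223), and every one of these genes was lower with siRNA 3 in both lines. The median difference was -0.48 over the 8 fatty acid enzymes in each line, and -0.26 (empty vector) and -0.18 (HER2) over the sterol enzymes. The proliferation list also differed between the reagents, with 5 of 10 genes passing as lower with siRNA 3 and 0 as higher. MKI67, PLK1 and TYMS still passed without control A or B, and the part of this list was not tested.

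**Figure D2:**
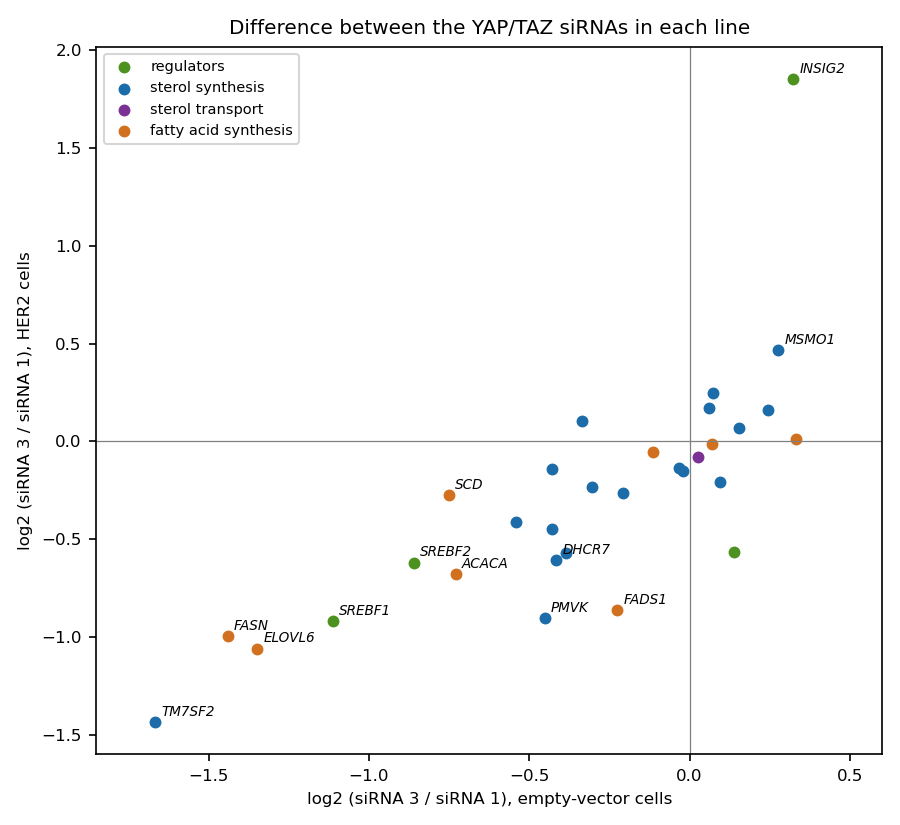
Log2 ratio of siRNA 3 to siRNA 1 for each of the 31 genes in empty-vector cells (x axis) and HER2 cells (y axis), coloured by role. TM7SF2, FASN, ELOVL6, SREBF1, SREBF2 and ACACA lie in the lower left, lower with siRNA 3 in both lines; INSIG2 is high in HER2 cells (1.85).

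On the 0.5 kPa hydrogel, compared with the same controls A and B as the siRNA libraries, empty-vector cells had lower levels of several enzymes than on plastic. The single hydrogel library lay below the mean of the controls for 27 of the 31 genes, against 48.7% of all genes tested, with a median log2 fold change of -0.43 over the sterol enzymes and -0.63 over the fatty acid enzymes. In the reagent model 11 of the 31 passed as lower (7 sterol and 4 fatty acid), where 9.95% of all genes did, and 1 as higher, where 10.2% did. The group-means model passed 0 of the 31 and 0% of all genes. Its unadjusted p was under 0.05 for 10 of the 31 and 3064 of the 16117 genes tested. DESeq2 passed 8, all lower, where it passed 11.6% of all genes. Without control A or B none of the 31 passed, where 2.15% and 1.93% of all genes did.

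The fatty acid desaturase FADS1, which makes arachidonic acid, was 123 and 128 CPM on plastic and 41.3 CPM on the hydrogel (-1.60 ± 0.23, edgeR adjusted p = 0.0188). DHCR7 was 123 and 117 CPM against 41.4 CPM (-1.54 ± 0.15, edgeR adjusted p = 0.0113). The mevalonate diphosphate decarboxylase MVD was 54.4 and 47.9 CPM against 21.6 CPM (-1.24 ± 0.18, edgeR adjusted p = 0.0191). For each of the 3 the hydrogel value was under both controls by far more than the controls differed. Lanosterol synthase LSS was 115 and 116 CPM against 49.5 CPM (-1.22 ± 0.18, edgeR adjusted p = 0.0204). FASN was 233 and 205 CPM against 97.4 CPM (-1.17 ± 0.20, edgeR adjusted p = 0.0234). MVK was 42.6 and 37.3 CPM against 19.2 CPM (-1.05 ± 0.19, edgeR adjusted p = 0.0259). The one gene that passed as higher, TM7SF2, a reductase of the sterol ring, went from 3.43 and 3.5 CPM to 7.78 CPM (1.17 ± 0.29, edgeR adjusted p = 0.0482).

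The regulators did not pass. INSIG1 was 87.2 CPM on the hydrogel (-0.64 ± 0.23, edgeR adjusted p = 0.113), under both controls. SREBF1 at 29.2 CPM and SREBF2 at 59.3 CPM were also under both controls, and INSIG2 at 11.3 CPM was above both. The proliferation list had a median of -2.78 in this library against the controls, and its part was not tested.

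In HER2 cells, hydrogel against plastic was 1 library against 1, the plastic library being also the control of the siRNA comparison. None of the 31 passed in the reagent model, where 0.186% of all genes did, or in the group-means model. In the latter, unadjusted p was under 0.05 for 4 of the 31 and 1568 of the 16117 genes tested. DESeq2 passed 2, HMGCS1 and STARD4, where it passed 1.94% of all genes. STARD4, a carrier that moves sterol between membranes, was 51.0 CPM on plastic and 22.2 CPM on the hydrogel (-1.20 ± 0.17, edgeR adjusted p = 0.0574). HMGCS1 was 663 and 302 CPM (-1.13 ± 0.17, edgeR adjusted p = 0.0602). FADS1, the member with the lowest fold change in empty-vector cells, was 237 and 228 CPM in HER2 cells (-0.05 ± 0.24). DHCR7 was 56.1 and 49.2 CPM (-0.19 ± 0.16), and MVD 13.04 and 13.8 CPM (0.08 ± 0.20), both of them lower on plastic in HER2 cells than in the empty-vector controls. SREBF1 (19.3 and 18.2 CPM), SREBF2 (46.7 and 46.3 CPM), INSIG1 (224 and 226 CPM) and INSIG2 (10.4 and 7.81 CPM) did not pass. The proliferation list stood at a median of 0.29 on plastic and 0.27 on the hydrogel in HER2 cells, relative to the empty-vector controls.

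The difference of the hydrogel response between lines passed for 0 of the 31 and 0% of all genes in both models (edgeR). In the reagent model, unadjusted p was under 0.05 for 13 of the 31 and 4507 of the 16117 genes tested. In the group-means model it was under 0.05 for 4 of the 31 and 1901 of all genes. DESeq2 passed 0 of the 31, where it passed 3.1% of all genes. The values furthest above 0 were 1.55 ± 0.33 for FADS1, 1.39 ± 0.28 for MVK, 1.35 ± 0.22 for DHCR7 and 1.32 ± 0.27 for MVD, HER2 minus empty vector, with edgeR adjusted p = 0.0801, 0.0785, 0.0719 and 0.0785. These were picked for their size.

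**Figure D3:**
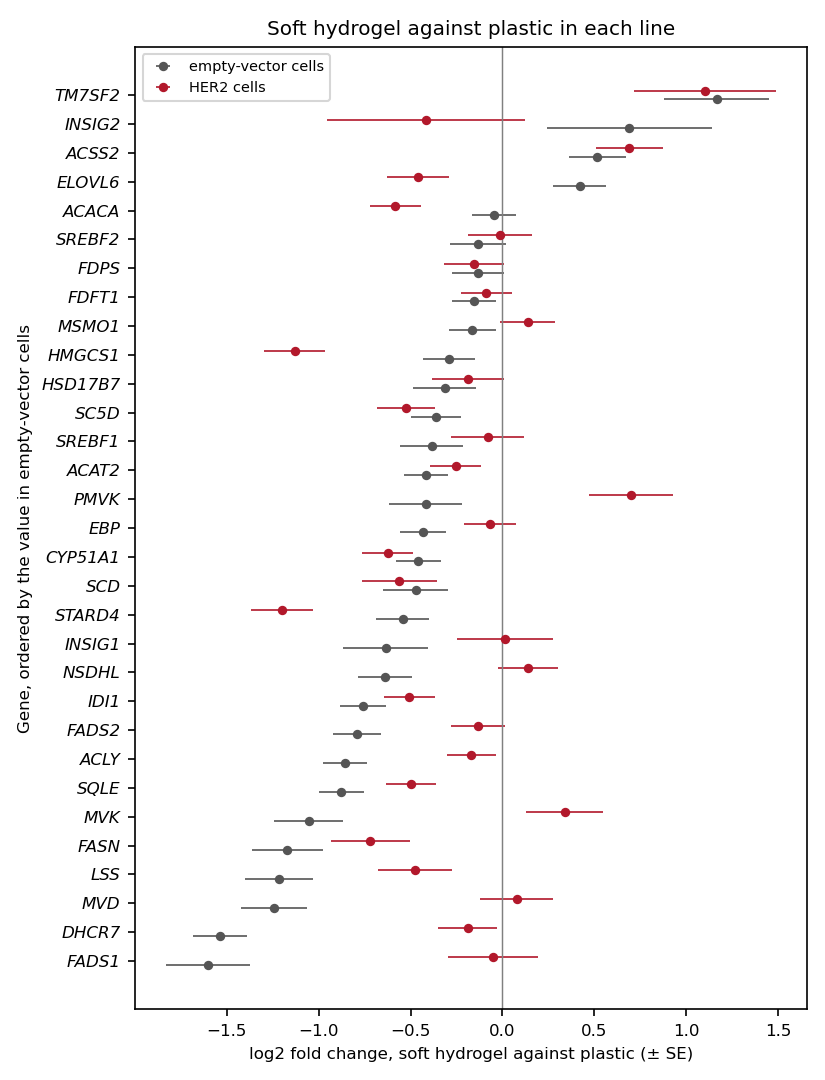
Log2 fold change of each of the 31 genes on the hydrogel against plastic (x axis, ± SE, reagent model) in empty-vector cells (grey) and HER2 cells (red), ordered by the empty-vector value. FADS1 is at -1.60 in empty-vector and -0.05 in HER2 cells, and TM7SF2 is above 1 in both.

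Between HER2 and empty-vector cells, genes passed in both directions, with MVD, LSS and MVK lower and FADS1 and CYP51A1 higher on plastic. On plastic, 2 of the 31 passed as higher, where 9.08% of all genes did, and 8 as lower, where 13.2% did. The group-means model passed 0 of the 31, where it passed 1.03% of all genes. Its unadjusted p was under 0.05 for 8 of the 31 and 3353 of the 16117 genes tested. DESeq2 passed 5, where it passed 14.4% of all genes. Without control A 0 of the 31 passed, where 3.14% of all genes did. Without control B 1 passed, MVD, where 3.86% of all genes did. MVD was 54.4 and 47.9 CPM in the empty-vector controls and 13.04 CPM in the HER2 control (-1.97 ± 0.19, edgeR adjusted p = 0.00732). TM7SF2 was 3.43 and 3.5 CPM against 0.919 CPM (-1.91 ± 0.36, edgeR adjusted p = 0.0241). LSS was 115 and 116 CPM against 43.9 CPM (-1.39 ± 0.19, edgeR adjusted p = 0.0128). All 3 were lower in the HER2 control than in either empty-vector control. MVK, at 15.8 CPM in the HER2 control, gave -1.34, and DHCR7, at 56.1 CPM, gave -1.10. SREBF1, at 19.3 CPM against 40.2 and 36.1 CPM, gave -0.98 ± 0.18 (edgeR, adjusted p = 0.022). FADS1 went the other way, at 237 CPM against 123 and 128 CPM (0.91 ± 0.21, edgeR adjusted p = 0.0367). CYP51A1 was 674 CPM against 396 and 400.0 CPM (0.76 ± 0.12, edgeR adjusted p = 0.016). The proliferation list had 2 of 10 passing as higher, and its part was not tested. INSIG1, SREBF2 and INSIG2 did not pass, at 224, 46.7 and 10.4 CPM in the HER2 control (edgeR adjusted p = 0.0749, 0.0892 and 0.421).

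On the hydrogel, 6 of the 31 passed as higher in HER2 cells, where 11% of all genes did, and 3 as lower, where 14.6% did. The group-means model passed 0 of the 31, where it passed 1.51% of all genes. Its unadjusted p was under 0.05 for 6 of the 31 and 3793 of the 16117 genes tested. DESeq2 passed 3, INSIG1, FADS1 and FADS2, where it passed 17% of all genes. INSIG1 and FADS1 also passed without control A and without control B, a smaller share of the 31 than of all genes in those fits. FADS1 was 228 CPM with HER2 against 41.3 CPM without it (2.47 ± 0.26, edgeR adjusted p = 0.00767). INSIG1 was 226 against 87.2 CPM (1.37 ± 0.26, edgeR adjusted p = 0.0247). FADS2 was 105 against 49.6 CPM (1.08 ± 0.15, edgeR adjusted p = 0.0128). FADS1 and FADS2 are neighbours on chromosome 11 and encode the desaturases of polyunsaturated fatty acids. The sterol dehydrogenase NSDHL (27.1 and 44.1 CPM), CYP51A1 (289 and 437 CPM) and SQLE (331 and 483 CPM) were higher by 0.70, 0.60 and 0.54. TM7SF2 (7.78 and 1.98 CPM), ACACA (205 and 127 CPM) and FDPS (484 and 312 CPM) passed as lower, with -1.97, -0.70 and -0.63. The proliferation list also differed here, with all 10 genes passing as higher in HER2 cells, and its part was not tested.

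Under YAP/TAZ siRNA the lines were compared 2 libraries against 2. The group-means model passed 3 of the 31, where it passed 5.84% of all genes. LSS was lower in HER2 cells, at 36.7 and 39.4 CPM against 93.8 and 74.3 CPM (-1.14 ± 0.20, edgeR adjusted p = 0.0379, group means). MVD was lower too, at 13.2 and 9.91 CPM against 36.8 and 25.3 CPM (-1.43 ± 0.28, edgeR adjusted p = 0.0478, group means). FADS2 was higher, at 117 and 116 CPM against 59.0 and 61.9 CPM (0.94 ± 0.17, edgeR adjusted p = 0.0397, group means). The libraries of the lines did not overlap for any of the 3, but these genes were picked for passing on the same libraries. The share of all genes without such overlap was not counted. Leaving out 1 library at a time left between 0 and 4 calls in the group-means model. It left 0 without control A or B (0.494% of all genes), without empty-vector siRNA 1 (0.973%) or without HER2 siRNA 1 (3%). It left 1 without empty-vector siRNA 3 (3.74% of all genes) and 4 without HER2 siRNA 3 (15%). In the reagent model 6 passed as higher, where 15.4% of all genes did, and 6 as lower, where 17.5% did. Without control A or B, LSS, MVD, INSIG1, FADS1 and FADS2 passed, a share of the 31 close to that of all genes in those fits. DESeq2 passed the same 5 genes, where it passed 21.1% of all genes.

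INSIG1 under siRNA was 175 and 118 CPM with HER2 against 65.0 and 71.6 CPM without it (1.07 ± 0.19, edgeR adjusted p = 0.0151). FADS1 was 223 and 123 against 85.1 and 72.8 CPM (1.07 ± 0.18, edgeR adjusted p = 0.0132). Neither gene overlapped between the lines, but both had been picked after passing on the same libraries. SREBF1 and SREBF2 passed as lower in the reagent model, with -0.55 ± 0.14 and -0.75 ± 0.12 (edgeR, adjusted p = 0.0362 and 0.0132), and INSIG2 did not (0.25 ± 0.39, edgeR adjusted p = 0.642). Of the proliferation list 8 of 10 passed as higher here, and its part was not tested.

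**Figure D4:**
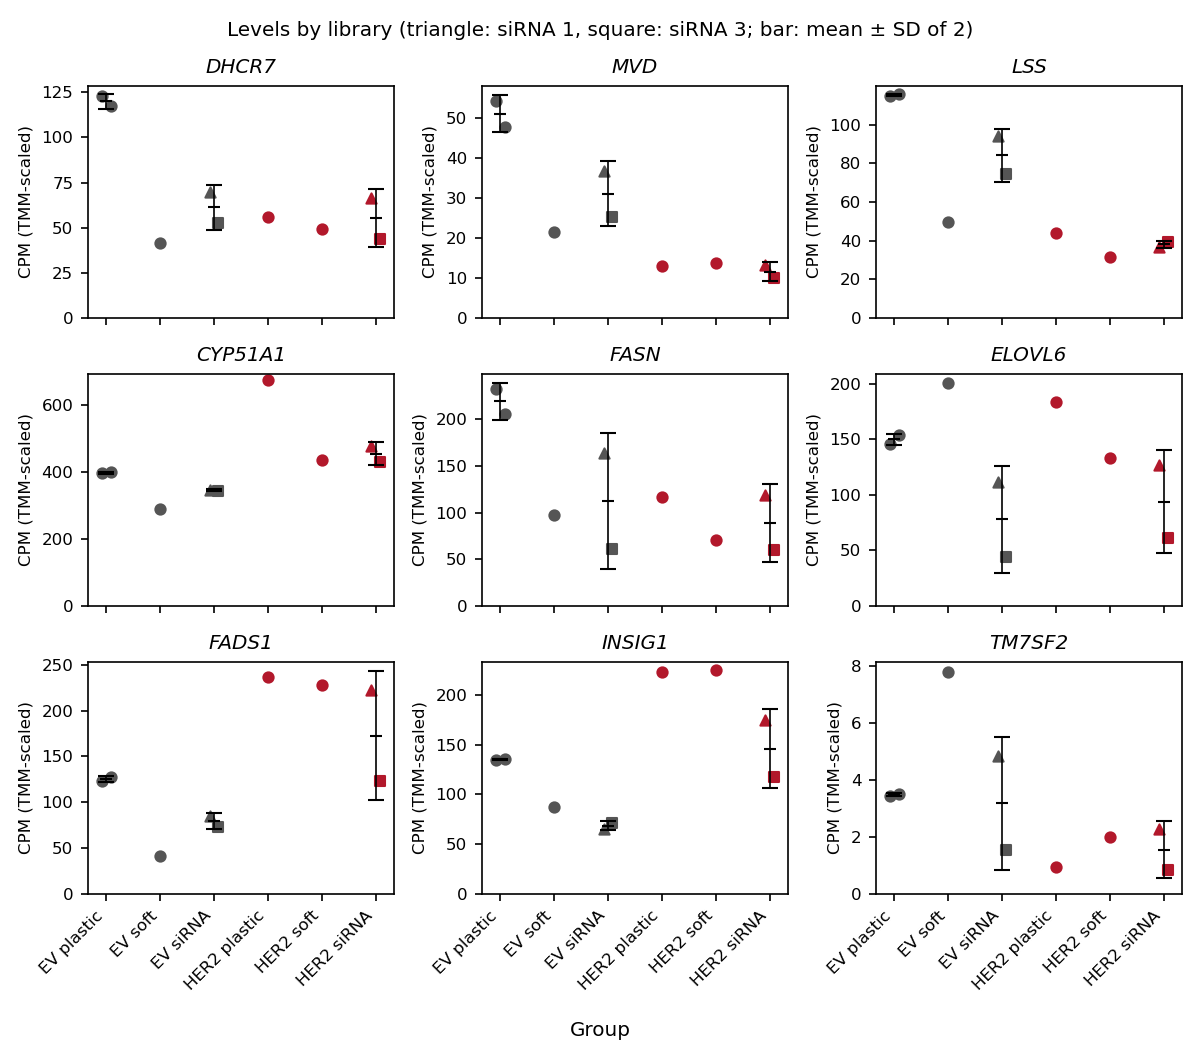
CPM of 9 of the genes in each library, from 0, in empty-vector (grey) and HER2 (red) cells; triangles are siRNA 1, squares siRNA 3, and bars give mean ± SD where a group has 2 libraries. MVD and LSS are low in all 4 HER2 libraries, FADS1 is lowest on the hydrogel in empty-vector cells (41.3 CPM), and FASN and ELOVL6 differ between the reagents.

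The members not yet described by library included MSMO1, SC5D and ACSS2, for which the siRNA libraries were not both below the empty-vector controls. MSMO1 was 396 and 381 CPM in the empty-vector controls, 329 and 399 CPM with siRNA and 346 CPM on the hydrogel, and 273, then 297 and 410.5, then 300.2 CPM in HER2 cells. SC5D, a late desaturase of the sterol ring, read 105 and 112 CPM in the empty-vector controls, 108 and 113 CPM with siRNA and 84.1 CPM on the hydrogel, and 135, then 119.7 and 142, then 94.1 CPM in HER2 cells. The acetyl-CoA synthetase ACSS2 gave 49.3 and 47.8 CPM in the empty-vector controls, 47.7 and 60.1 CPM with siRNA and 69.5 CPM on the hydrogel, and 47.5, then 53.0 and 53.5, then 76.7 CPM in HER2 cells. With siRNA 3 all of these were above both empty-vector controls, and with siRNA 1 MSMO1 and ACSS2 were below both and SC5D between them. The phosphomevalonate kinase PMVK measured 35.8 and 33.2 CPM in the empty-vector controls, 29.04 and 21.2 CPM with siRNA and 25.8 CPM on the hydrogel, and 24.2, then 31.6 and 16.9, then 39.3 CPM in HER2 cells. IDI1, which isomerises isopentenyl diphosphate, stood at 332 and 321 CPM in the empty-vector controls, 191 and 226 CPM with siRNA and 193 CPM on the hydrogel, and 300.0, then 234 and 261, then 211 CPM in HER2 cells. PMVK passed as lower with siRNA 3 than with siRNA 1 (-0.68, edgeR adjusted p = 0.0495), and IDI1 passed as lower with siRNA and on the hydrogel in empty-vector cells (-0.65 and -0.76, edgeR adjusted p = 0.0145 and 0.0228). SCD, which makes monounsaturated fatty acids, had 568 and 543 CPM in the empty-vector controls, 461 and 274 CPM with siRNA and 401 CPM on the hydrogel, and 550.3, then 449 and 371, then 373 CPM in HER2 cells. ACLY, which makes cytosolic acetyl-CoA, had levels of 591 and 586 CPM in the empty-vector controls, 382 and 354 CPM with siRNA and 325 CPM on the hydrogel, and 506, then 479 and 462, then 449.9 CPM in HER2 cells. Both passed as lower with siRNA in empty-vector cells (-0.64 and -0.68, edgeR adjusted p = 0.0328 and 0.0126), and ACLY also on the hydrogel (-0.86, edgeR adjusted p = 0.0184).

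Sterol and fatty acid enzymes were set side by side by the median log2 fold change of the 18 and of the 8, with no test of the difference. In the group-means model the sterol median minus the fatty acid median was 0.07 for siRNA in empty-vector cells, 0.19 for siRNA in HER2 cells, 0.21 and 0.14 for hydrogel against plastic in empty-vector and HER2 cells. For HER2 against empty vector it was -0.15 (plastic), 0.12 (hydrogel) and -0.26 (siRNA). Without the siRNA 3 library of the line, the siRNA value was -0.05 in empty-vector and -0.14 in HER2 cells, and without its siRNA 1 library it was 0.07 and 0.27, so the reagents differed in sign in both lines. Summed over the 18 sterol enzymes, levels were 4083 and 4094 CPM in the empty-vector controls, 2982 and 2893 CPM with siRNA 1 and 3 and 3003 CPM on the hydrogel. Summed over the 8 fatty acid enzymes they were 2009 and 1960 CPM, then 1526 and 1056 CPM, then 1389 CPM. The sterol sum was close between the reagents, and the fatty acid sum was lower with siRNA 3. In HER2 cells the sterol sums were 4132 CPM in the control, 3065 and 3023 CPM with siRNA 1 and 3 and 3129 CPM on the hydrogel, and the fatty acid sums were 1945, 1737, 1351 and 1563 CPM in the same order.

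**Figure D5:**
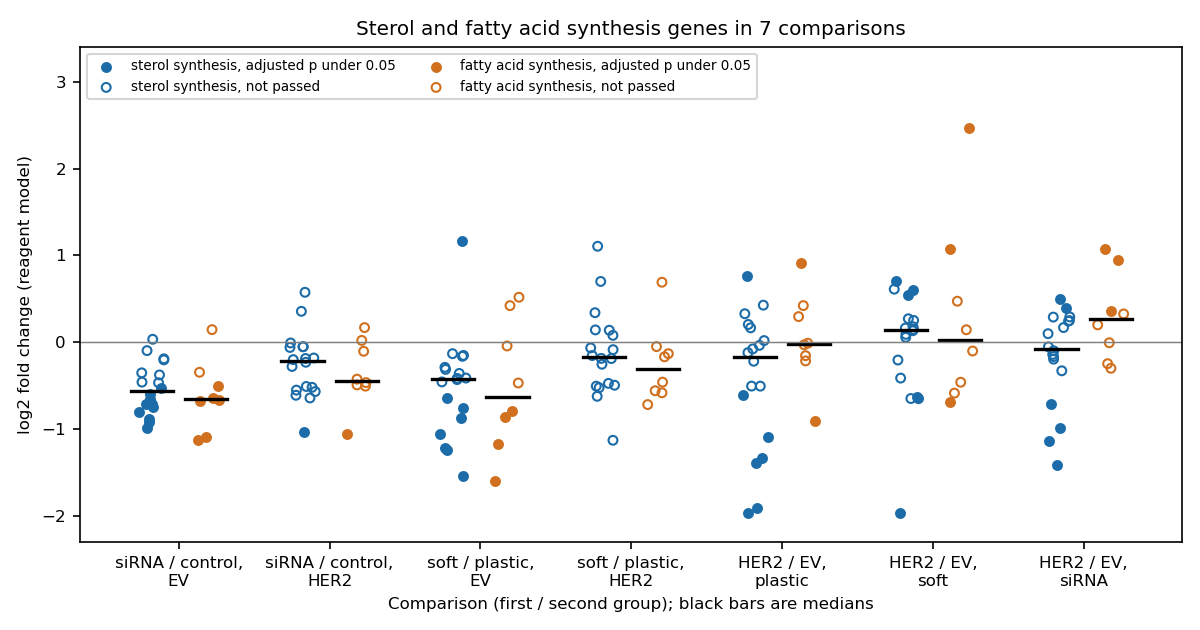
Log2 fold change (reagent model) of each sterol enzyme (blue) and fatty acid enzyme (orange) in 7 comparisons; filled points have an adjusted p under 0.05 and black bars are medians. Most points lie below 0 for siRNA and hydrogel in empty-vector cells, and FADS1 stands alone at 2.47 for HER2 against empty vector on the hydrogel.

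Genes around the pathway were counted from lists in the reagent model, beside the shares of all genes already given for each comparison. These lists do not include the proliferation list. On the hydrogel in empty-vector cells, leaving out control A or B left no calls in them. With siRNA in empty-vector cells it left ABCA1 (either left out) and ABCG1 (control B left out). Of the proliferation list, MKI67, TOP2A, CDK1, PLK1 and RRM2 still passed as lower in both comparisons with either control left out. Of 14 other SREBP targets tested, 4 passed as lower (13.6% of all genes) and 1 as higher (12.1%) with siRNA in empty-vector cells, among them TMEM97, a sterol-binding membrane protein (-1.91, edgeR adjusted p = 0.0173), and the prenyl transferase GGPS1 (0.57, edgeR adjusted p = 0.0324). On the hydrogel 4 passed as lower (9.95% of all genes) and 1 as higher (10.2%), with TMEM97 at -1.97 and the phosphatidate phosphatase LPIN1 at 0.80. In HER2 against empty vector on plastic 4 passed as higher (9.08% of all genes) and 2 as lower (13.2%), 0 of them without control A or B, with ELOVL5 (1.40), which lengthens polyunsaturated fatty acids, LPIN1 (1.18) and the mitochondrial citrate carrier SLC25A1 (-1.17). Of 7 genes of the oxysterol-sensing LXR arm, 5 passed as higher (12.1% of all genes) and 0 as lower (13.6%) with siRNA in empty-vector cells. The cholesterol exporter ABCA1 was 0.155 and 0.370 CPM in the controls and 4.55 and 3.5 CPM with siRNA (3.94 ± 0.56, edgeR adjusted p = 0.0127). The exporter ABCG1 was 0.692 and 0.899 against 16.1 and 7.78 CPM (3.87 ± 0.54, edgeR adjusted p = 0.0126). The ubiquitin ligase MYLIP was 1.58 and 1.47 against 5.57 and 3.71 CPM (1.58 ± 0.24, edgeR adjusted p = 0.0151). These low-level genes were above the controls with both reagents. ABCG1 and MYLIP were the 2 of 7 that passed on the hydrogel in empty-vector cells, both as higher (10.2% of all genes), with 3.31 and 1.64.

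Of the 3 activation genes, MBTPS1, the first Golgi protease, passed as higher with siRNA in empty-vector cells (0.62, edgeR adjusted p = 0.0191). SCAP was 75.9 and 75.1 CPM in the empty-vector controls, 86.6 and 78.9 CPM with siRNA 1 and 3 and 61.5 CPM on the hydrogel. In HER2 cells it was 38.9 CPM in the control, 63.1 and 58.6 CPM with siRNA and 73.7 CPM on the hydrogel. It passed as lower in HER2 against empty vector on plastic (-0.96 ± 0.13, edgeR adjusted p = 0.0135), where the HER2 control was below every other library, but not without control A or B. The second protease gene MBTPS2 passed as higher there (1.07), also not without control A or B. ERLIN1, an endoplasmic reticulum scaffold of INSIG and reductase turnover, passed as lower in empty-vector cells with siRNA (-0.92, edgeR adjusted p = 0.0206) and on the hydrogel (-1.31, edgeR adjusted p = 0.0229). Of 6 uptake and storage genes, 2 passed as lower (13.6% of all genes) and 1 as higher (12.1%) with siRNA in empty-vector cells. On the hydrogel 2 passed as lower (9.95%) in these cells. The lipoprotein receptor SCARB1 was lower in both, with -1.25 and -1.35.

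With siRNA in HER2 cells 0 of the 14 other SREBP targets passed, and 1 of the 7 LXR genes passed as higher (2.2% of all genes), the oxysterol receptor NR1H2 (1.30, edgeR adjusted p = 0.0428), which did not pass without control A or B. On the hydrogel in HER2 cells 0 of either list passed. For HER2 against empty vector on the hydrogel 3 other targets passed as higher (11% of all genes), TMEM97 (2.5), ELOVL5 (0.95) and the malic enzyme ME1 (0.61), and 0 as lower (14.6%), and TMEM97 alone passed without control A or B. Under siRNA 6 passed as higher (15.4% of all genes) and 1 as lower (17.5%), with LPIN1 (1.55), TMEM97 (1.55) and ME1 (1.07) furthest from 0, and these 3 and ELOVL5 passed without control A or B.

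Between HER2 and empty-vector cells, 9.08% of all genes passed as higher and 13.2% as lower on plastic. The shares were 11% and 14.6% on the hydrogel and 15.4% and 17.5% under siRNA. Of the 7 LXR genes, 2 passed as higher and 1 as lower in HER2 cells on plastic, ABCA1 (4.52), the LXR-alpha gene NR1H3 (1.24) and NR1H2 (-1.61), and ABCA1 alone passed without control A or B. ABCA1 was 6.13 CPM in the HER2 control, 15.5 and 4.75 CPM with siRNA and 3.98 CPM on the hydrogel, above the empty-vector controls throughout. On the hydrogel 2 passed as higher and 2 as lower, with ABCG1 (-6.50), ABCA1 (2.84) and NR1H3 (2.19) furthest from 0. ABCG1 was 7.90 CPM on the hydrogel in empty-vector cells and at most 0.528 CPM in the HER2 libraries, with 6 counts in that of the hydrogel. Under siRNA 1 passed as higher and 3 as lower, with ABCG1 (-4.87), NR1H3 (1.77) and SMPDL3A (-1.23) furthest from 0. Of the 6 uptake and storage genes, the lipoprotein receptors VLDLR (3.20) and SCARB1 (-0.89) passed in HER2 cells on plastic, as higher and lower. VLDLR, with 50 and 25 counts in controls A and B, still passed without control A but not without control B. SCARB1 passed in neither of these fits. On the hydrogel SCARB1 (0.84) passed as higher and the sterol exporter of lysosomes NPC1 (-1.18) as lower, neither of them without control A or B. Under siRNA VLDLR (2.41) and the acyltransferase SOAT1 (0.52) passed as higher and NPC1 (-1.11) as lower, and VLDLR and NPC1 passed without control A or B. ERLIN1 passed as higher in HER2 cells on the hydrogel (1.56), also without control A or B, and with siRNA (0.78).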

How the data were processed

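The gene counts were deposited by the authors as whole numbers for 25370 entries, 25369 of them with a symbol. Per the submitters' processing notes, STAR 2.5.3a, featureCounts, edgeR and the hg19 build were used. Per the labels' protocols, total RNA was depleted of ribosomal RNA. The sources used here do not give the strand setting, the annotation or the treatment of multimapped reads.

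Genes were filtered with filterByExpr (minimum count 10), which left 16117, scaled by TMM and tested with edgeR 4.0.16 (R 4.3.3), with Benjamini-Hochberg adjustment at 0.05. All 6 groups entered each fit. Group means left 3 residual degrees of freedom and a biological coefficient of variation of 0.4081. The reagent model left 2 and 0.2085. In it the number of an siRNA names a reagent and not a batch, a gene changed by 1 reagent alone can pass, and siRNA 3 minus siRNA 1 correlated between the lines with r = 0.415 across 16117 genes, from 2 pairs. SE is the fold change over the root of F. DESeq2 1.42.0, RLE scaling, no filter and leaving out in turn each library of the 3 groups that have 2 were alternatives. Counts of neighbouring lists without control A or B were added after seeing the data.

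Members and lists were chosen with earlier results of these data known. Named genes are the regulators, up to 6 members in each direction furthest from 0 among those that passed in group means or, with none there, in the reagent model, and up to 3 of each neighbouring list; others were chosen after their values were seen. A few genes picked by that rule are left out of the text.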

Additional observations from a re-analysis of the deposited data

How the results depend on the processing

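Counts here are of the 31 genes that passed at 0.05. The group-means model passed 0 in every comparison but HER2 against empty vector under siRNA, with 3. With the replicate block (the reagent term) the counts were 10 (plastic), 9 (hydrogel) and 12 (siRNA) for HER2 against empty vector, 12 for hydrogel in empty-vector cells, and 17 and 2 for siRNA in empty-vector and HER2 cells. With DESeq2 they were 5, 3, 5, 8, 8 and 1 in that order, and 2 for hydrogel in HER2 cells. Of all genes DESeq2 passed 14.4%, 17%, 21.1%, 11.6%, 14.4% and 3.33% in that order, and 1.94% for hydrogel in HER2 cells. Without the filter on low counts, HER2 against empty vector on the hydrogel passed 1, where 4.08% of all genes passed. Leaving out 1 library at a time, the group-means count ranged from 0 to 2 (plastic), 0 to 3 (hydrogel) and 0 to 4 (siRNA) for HER2, and from 0 to 1 for hydrogel and 0 to 4 for siRNA in empty-vector cells. The share of all genes ranged, in the same order, from 0% to 6.34%, 0.00625% to 12%, 0.494% to 15%, 0% to 3.98% and 0% to 8.97%. With the replicate block and without control A or B, these counts were 0 and 1 (HER2 on plastic), 2 and 2 (hydrogel), 5 and 5 (siRNA), and 2 and 2 for siRNA 3 against siRNA 1, where 8 had passed. For HER2 the shares of all genes were 3.14% and 3.86% (plastic), 11.7% and 11.6% (hydrogel), and 15% and 14.9% (siRNA). The block has only 2 pairs, so the pairing rests on the reagent's name. The sterol median minus the fatty acid median for HER2 against empty vector under siRNA was -0.3391 with the block and -0.4696 to -0.0926 with a library left out. It ranged from -0.0467 to 0.0771 for siRNA in empty-vector cells and from -0.1357 to 0.2696 in HER2 cells, negative in each line without its siRNA 3 library. Under RLE scaling within the reagent model, added after seeing the data, the near-zero values of HSD17B7, SCD and ACSS2 (HER2 on plastic), INSIG1 (hydrogel, HER2 cells), ACSS2 (HER2 with siRNA) and ELOVL6 and ACSS2 (difference of the siRNA response between lines) changed sign. The cause was not tested. The 21 counts of TM7SF2 in the shallowest library limit its precision.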
